A study of Caenorhabditis elegans with 14 samples.

Results

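The chromosome X peaks were the 17587 listed peaks that lay on that chromosome, on either strand and with no filter on their values, among 162556 peaks in 7 lists of RNA crosslinked to EIF-3.G of the nematode Caenorhabditis elegans. The other 144969 peaks lay on the autosomes and the mitochondrial genome. The assay was seCLIP, in which RNA is crosslinked to protein by ultraviolet light and the protein is immunoprecipitated. The attached RNA is then sequenced beside an input library, and each list holds the peaks of 1 CLIP library over its own input. EIF-3.G carried a 3xFLAG tag, was expressed from the Punc-17beta promoter, which drives expression in cholinergic motor neurons, and was pulled down with the anti-FLAG M2 antibody. ΔRRM stands for the delta-RRM form, which lacks the RNA recognition motif, expressed from the transgene juSi368 in acr-2(n2420) worms, with 2 CLIP libraries. C130Y stands for the substituted form (juSi365) in worms with eif-3.G(ju807), the same change in the endogenous gene, and acr-2(n2420), with 2 libraries. The intact form, (+), was juSi364 in acr-2(n2420) worms, with 2 libraries. The no-transgene library came from wild type N2 worms, which carry neither allele, and was the only one of its kind. The antibody given for it is anti-FLAG M2, although its source is described as an IgG control. Worms were of mixed stages, and whole worms were lysed, so the input holds RNA of all tissues whereas the tagged protein was driven in cholinergic motor neurons. Each transgenic form was represented by 1 strain, so a form and its insertion cannot be told apart, nor can the C130Y transgene and the change in the endogenous gene.

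EIF-3.G is a subunit of eIF3, the large complex that helps bring the small ribosomal subunit to mRNA at the start of translation. The protein has a zinc finger and, at its carboxyl end, an RNA recognition motif, a fold that commonly contacts RNA. In C. elegans, hermaphrodites have a pair of X chromosomes and males have a lone copy. Dosage compensation lowers X transcription in hermaphrodite somatic cells, and much of the X is kept nearly silent in the germ line, while many genes used in neurons and muscle lie on it.

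The lists held 1142 and 2116 chromosome X peaks in the ΔRRM libraries (replicates 1 and 2, here and in every pair of values that follows), 2671 and 3800 in C130Y, 4088 and 3050 in (+), and 720 without a transgene. CLIP read totals, recovered from the listed values, were 0.544 and 0.892 M reads for ΔRRM, 1.22 and 1.73 M for C130Y, 1.70 and 1.57 M for (+) and 0.192 M without a transgene. Of the 17587 peaks, 4759 (27.1%) lay below input, 5004 (28.5%) had a log2 enrichment between 0 and 1, and 7062 (40.2%) had a log2 of at least 1 with a −log10 p-value under 3. The other 762 (4.33%) had a −log10 p-value of 3 or more besides a log2 of 1 or more, and are called enriched. Merged by overlap on a strand, the listed X peaks covered 9191 separate stretches, of which 5777 were listed in exactly 1 library and 88 in all 7. Replicates listed the same stretches in part. Of the X peaks of ΔRRM replicate 1, 54.6% overlapped a listed peak of ΔRRM replicate 2, and 30.5% did so in the reverse direction, where the list is longer. The shares were 45.6% and 32.3% between the C130Y replicates and 35.1% and 47.1% between the (+) replicates.

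The first comparison was of the number of enriched X peaks by form of EIF-3.G. ΔRRM gave 222 and 142, C130Y gave 115 and 109, (+) gave 69 and 84, and worms without a transgene gave 21. Every ΔRRM library was above every C130Y library, and every C130Y library above every (+) library. The enriched share of listed X peaks was 19.4% and 6.71% in ΔRRM, where 16% and 5.34% of all listed peaks of the genome were enriched. In C130Y it was 4.31% and 2.87%, with 4.44% and 2.64% over the genome. In (+) it was 1.69% and 2.75%, with 1.86% and 2.55% over the genome. The X share was above that of the whole list in both ΔRRM libraries, and above it in 1 of 2 C130Y and 1 of 2 (+) libraries. Without a transgene 2.92% of X peaks were enriched, with 8.58% over the genome.

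ΔRRM averaged 182 ± 56.6 enriched X peaks, C130Y 112 ± 4.24 and (+) 76.5 ± 10.6 (SD, n = 2 each). On the log2 scale ΔRRM was 1.22 above (+), or 2.33-fold, with an exact two-sided permutation p = 0.333 and a Benjamini-Hochberg adjusted p = 0.417 over the 10 tests made. C130Y was 0.56 above (+), or 1.47-fold, and ΔRRM was 0.67 above C130Y, or 1.59-fold, both with the same exact permutation p = 0.333 and adjusted p = 0.417. With 2 libraries against 2 there are 6 arrangements and 0.333 is the smallest p the design allows, so none of the 3 differences could pass a threshold of 0.05. The differences share libraries, since each form serves in more than 1 of them. The ΔRRM libraries also had the fewest CLIP reads of the tagged libraries, while the CLIP totals of C130Y and (+) overlapped. Recovered input totals were 1.55 and 1.31 M reads for ΔRRM, 3.03 and 1.67 M for C130Y and 1.14 and 1.29 M for (+). Both (+) inputs were thus below every input of the other tagged forms. The part of depth in these numbers was not tested.

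Read as a share of each list at the main thresholds, the X differed little between the forms. It made up 12.6% (95% Wilson interval 11.1 to 14.2) and 12.4% (10.6 to 14.4) of the enriched peaks of the ΔRRM libraries. In C130Y it made up 9.74% (8.17 to 11.6) and 11.4% (9.52 to 13.5), and in (+) 10.8% (8.61 to 13.4) and 12.9% (10.5 to 15.7). The intervals of the 6 tagged libraries overlap. Set against (+), the ΔRRM mean was 0.635 percentage points higher (exact permutation p = 1) and the C130Y mean 1.28 points lower, a difference of -1.28 with an exact permutation p = 0.667. ΔRRM was 1.92 points above C130Y (exact permutation p = 0.333). The adjusted p-values of these 3 exact permutation tests were 1, 0.741 and 0.417. With peaks within 5 kb of one another on a strand counted as 1 locus, ΔRRM was instead lower than (+), with a difference of -0.784 points, and lower than C130Y, with a difference of -0.0706. At a log2 of at least 3, ΔRRM was 4.61 points above (+) and 4.25 above C130Y. With a −log10 p-value of at least 5 it was 2.59 and 4.44 points above them (exact permutation p = 0.333 for each). At 1.3 the differences were -2.53 and 0.035 points. Of all listed peaks, enriched or not, the X held 10.4% and 9.87% in ΔRRM, 10.0% and 10.5% in C130Y, 11.9% and 11.9% in (+) and 10.0% without a transgene.

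**Figure D1:**
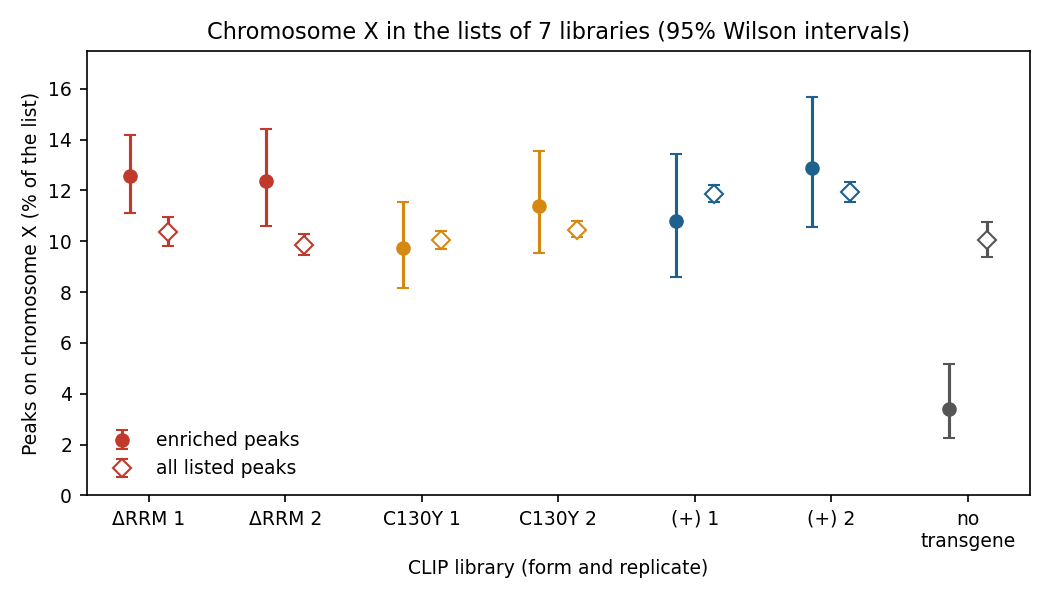
Share of chromosome X among enriched peaks (filled circles) and among all listed peaks (open diamonds), in percent of each list, for the 7 CLIP libraries, with 95% Wilson intervals that cover counting error only. The 6 tagged libraries sit between 9.74% and 12.9% for enriched peaks, and the no-transgene library at 3.41%, below its own listed share of 10.0%.

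The library without a transgene stood apart on this chromosome. X peaks were 3.41% of its enriched peaks (95% Wilson interval 2.24 to 5.16), an interval that does not reach the lowest bound of any tagged library, 8.17%. Its enriched share of listed peaks was 2.92% on the X (1.92 to 4.42) and 9.21% on the other chromosomes (8.53 to 9.94), a ratio of 0.317. The ratios in the tagged libraries were 1.24 and 1.29 in ΔRRM, 0.967 and 1.10 in C130Y and 0.897 and 1.09 in (+). Among the 6 nuclear chromosomes, ordered from the highest enriched share to the lowest, the X had rank 6 without a transgene. It had rank 1 in both ΔRRM libraries, ranks 3 and 1 in C130Y, and ranks 5 and 3 in (+). Of the listed X peaks of the no-transgene library 65.0% had a log2 of at least 1, against 68.0% elsewhere. Below input lay 17.4% of them, against 12.0% elsewhere. The p-values differed more. Of the X peaks with a log2 of at least 1, 4.49% had a −log10 p-value of at least 3, against 13.5% of those on the other chromosomes. These X peaks with a log2 of at least 1 rested on a median of 3 CLIP reads, against 4 on the other chromosomes. The medians were 4 and 5 in ΔRRM replicate 2, C130Y replicate 1 and (+) replicate 1, and equal in the other tagged libraries. The no-transgene library was the shallowest, it was made once, and its worms lacked acr-2(n2420) as well as the transgene. Transgene, strain, depth and library therefore cannot be told apart and no test was made.

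The direction was the same at every threshold tried. When the −log10 p-value had to reach only 1.3, the X supplied 6.90% of enriched peaks without a transgene, and 10.2% to 14.4% in the tagged libraries. With a −log10 p-value of at least 5 it held 2.53%, and 7.90% to 13.0% in the tagged libraries. With a log2 of at least 3 it held 4.00%, and 10.2% to 16.9% in the tagged libraries. With loci in place of peaks it held 4.30%, and 11.7% to 13.9% in the tagged libraries. The no-transgene list was also the one most broken into abutting pieces, with 67 of its 720 listed X peaks removed when abutting pieces with the same values were joined, against 5 to 52 in each tagged list.

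**Figure D2:**
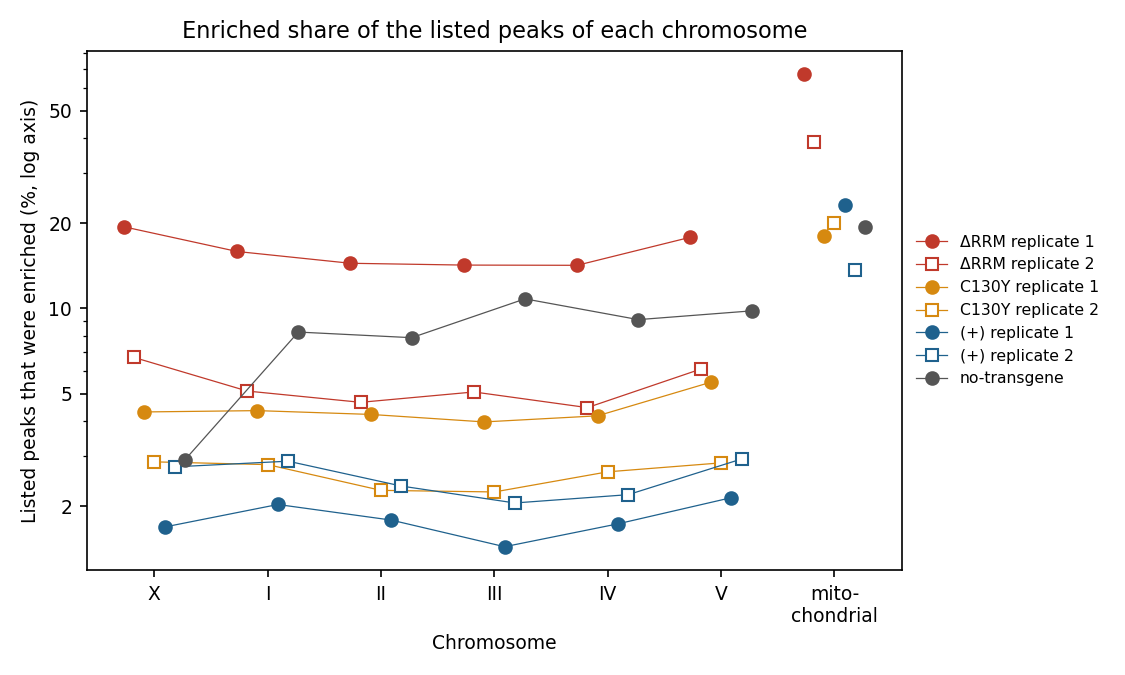
Percentage of listed peaks that were enriched (log axis) on chromosome X, on each autosome and in the mitochondrial genome, with 1 line per CLIP library joining the nuclear chromosomes. The no-transgene line is lowest at the X, at 2.92%, and the mitochondrial genome lies above the X in 7 of 7 libraries.

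The second comparison set enriched X peaks against enriched peaks of all other chromosomes within each library. The enriched share of listed peaks was higher on the X in 4 of the 6 tagged libraries. The mean log2 ratio was 0.12 ± 0.20 (SD, n = 6), or 1.09-fold, with an exact two-sided sign-flip permutation p = 0.25 and an adjusted p = 0.417. This difference was smaller than the spread between libraries, and with a −log10 p-value of at least 5 its direction turned, to -0.14.

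The median enrichment on the X was above that of the other chromosomes in every ΔRRM and C130Y library and below it in both (+) libraries. The median log2 enrichment of enriched X peaks was 3.51 and 2.57 in ΔRRM, with 2.97 and 2.25 on the other chromosomes. It was 2.58 and 2.70 in C130Y, with 2.41 and 2.41 elsewhere, and 2.28 and 2.62 in (+), with 2.33 and 2.65 elsewhere. Without a transgene the X median was 3.27, with 2.92 elsewhere. Over the 6 tagged libraries the X was 0.21 ± 0.22 higher on the log2 scale (SD, n = 6), positive in 4 of 6, with an exact sign-flip permutation p = 0.125 and an adjusted p = 0.417. For peaks with a log2 of at least 3 the direction turned, to -0.080. The (+) differences were small, -0.049 and -0.027. They kept their sign at a −log10 p-value of at least 5. Both (+) medians were instead above those elsewhere at 1.3 (2.23 and 2.59, with 2.07 and 2.41). They were also above with loci in place of peaks (2.42 and 2.90, with 2.29 and 2.65). At a log2 of at least 3 they were above too, while both C130Y libraries and ΔRRM replicate 2 were below. Set against (+), the X difference was 0.47 larger in ΔRRM and 0.27 larger in C130Y. Both contrasts were picked because their libraries lay on opposite sides of 0. With 2 libraries against 2 this fixes the exact permutation p at 0.333 beforehand, so that p tests nothing. Neither contrast was among the adjusted tests. Enriched X peaks rested on fewer reads than those elsewhere. Their median CLIP read number was 16.5 and 28 in ΔRRM, with 19 and 37 on the other chromosomes. It was 24 and 42 in C130Y, with 31 and 69.5 elsewhere, 59 and 45 in (+), with 95 and 89 elsewhere, and 20 without a transgene, with 27 elsewhere. The median was lower on the X in 7 of 7 libraries, a comparison chosen after the values were seen and not tested.

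**Figure D3:**
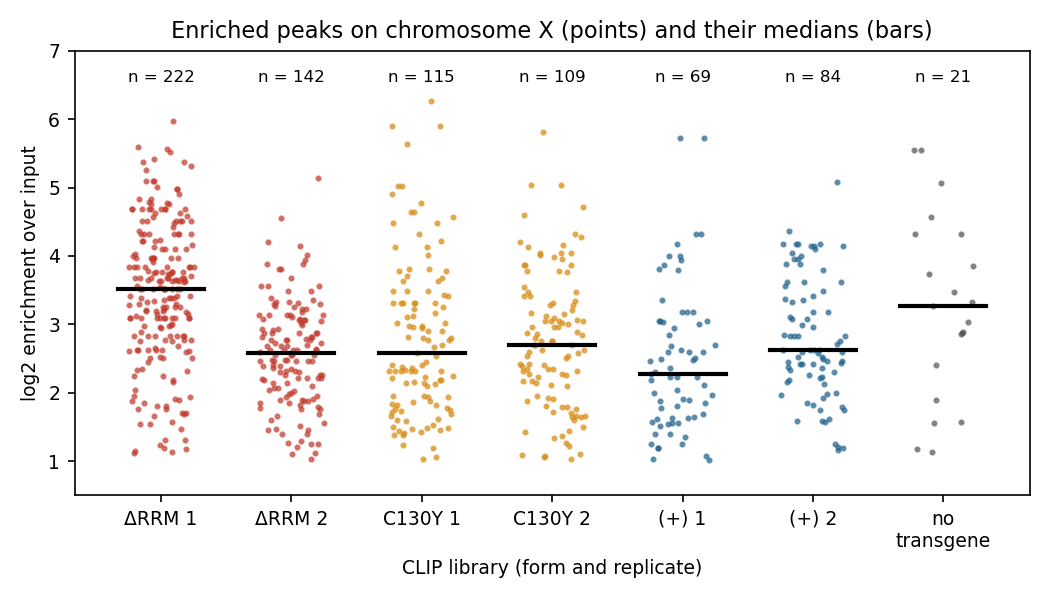
log2 enrichment over input of every enriched chromosome X peak (points) in the 7 CLIP libraries, with the median of each library (bar) and the number of peaks. The medians run between 2.28 in (+) replicate 1 and 3.51 in ΔRRM replicate 1, and the ranges of the libraries overlap.

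Median lengths of enriched X peaks were above those elsewhere in 5 of the 6 tagged libraries. Their median length was 50 and 48 nt in ΔRRM, with 48 and 49 nt on the other chromosomes. It was 38 and 43 nt in C130Y, with 32 and 33 nt elsewhere, and 38 and 35.5 nt in (+), with 30 and 27 nt elsewhere. Without a transgene the order was the other way, 45 nt on the X and 52 nt elsewhere. The X median was longer in 5 of 6 tagged libraries, by 0.23 ± 0.18 on the log2 scale (SD, n = 6) or 1.17-fold, with an exact sign-flip permutation p = 0.0625 and an adjusted p = 0.3125. The value depended on the p-value threshold, being 0.41 at a −log10 p-value of at least 5 and 0.04 at 1.3, with exact sign-flip permutation p = 0.03125 and p = 0.1875.

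In each tagged library, the plus strand held a larger share of enriched peaks on the X than elsewhere. In ΔRRM 125 of 222 (56.3%) and 86 of 142 (60.6%) did so, with 50.7% and 51.0% on the other chromosomes. In C130Y 64 of 115 (55.7%) and 65 of 109 (59.6%) did so, with 49.9% and 52.2% elsewhere. In (+) 46 of 69 (66.7%) and 52 of 84 (61.9%) did so, with 55.2% and 52.7% elsewhere. All 6 tagged libraries were higher on the X, by 8.18 ± 2.32 percentage points (SD, n = 6), with an exact sign-flip permutation p = 0.03125, the smallest that 64 arrangements allow. After correction over the 10 tests this exact permutation test no longer passes, with an adjusted p = 0.3125. The libraries also share regions, so their strand shares are not independent of one another. With each merged region of the 7 libraries counted once, 169 of 313 X regions (54.0%) lay on the plus strand, with 51.2% elsewhere. The autosomes differed among themselves. In (+) replicate 2 the plus-strand share was 65.3% on chromosome I, above that of the X, and 40.6% on chromosome II. In C130Y replicate 2 it was 61.0% on chromosome III, also above that of the X. In the other tagged libraries no autosome exceeded the X. Without a transgene 10 of 21 enriched X peaks (47.6%) lay on the plus strand, with 51.9% elsewhere. The list as a whole showed no such lean, since 49.5% to 51.2% of all listed X peaks of the tagged libraries lay on the plus strand. The strand difference was 8.88 points with loci in place of peaks (exact sign-flip permutation p = 0.03125). It was 2.60 points for peaks with a log2 of at least 3 and 2.01 points with a −log10 p-value of at least 1.3, with exact sign-flip permutation p = 0.1875 and p = 0.156.

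**Figure D4:**
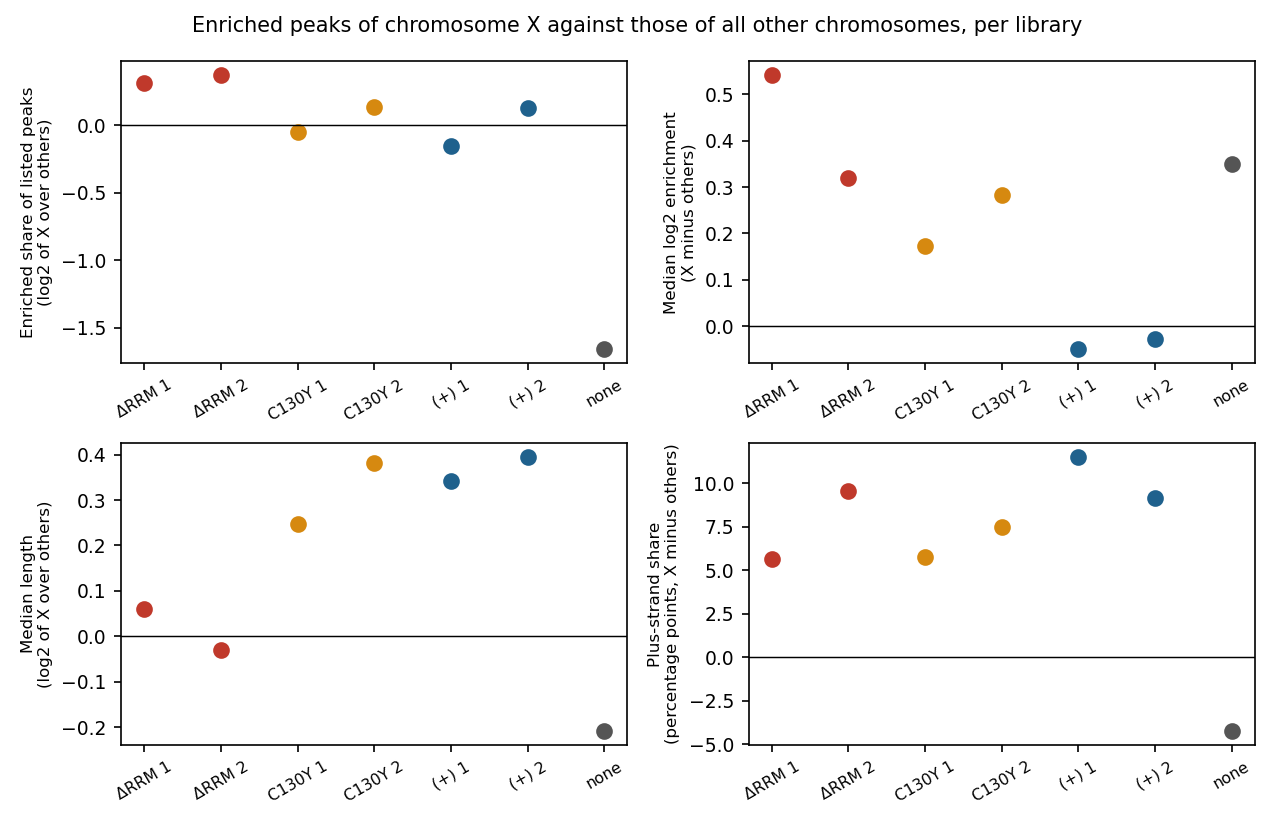
Enriched peaks of chromosome X against those of all other chromosomes in each CLIP library, as the log2 ratio of enriched shares, the difference in median log2 enrichment, the log2 ratio of median lengths in nt and the difference in plus-strand share in percentage points. Points are single libraries, none marks the no-transgene library, and the 6 tagged libraries all lie above 0 for the plus-strand share.

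Enriched peaks of the 7 libraries merged into 2738 regions, of which 313 (11.4%) were on the X, in 182 of 1480 loci. X regions had a median length of 54 nt, with 59 nt elsewhere, and spanned the chromosome between positions 48727 and 17680609 (build ce10, 1-based). A region that is enriched in both libraries of a form is called reproducible. There were 95 such X regions in ΔRRM, 60 in C130Y and 34 in (+), while 25.1%, 16.8% and 9.39% of all 2738 regions were reproducible in these forms. Of the X regions enriched in either library of a form, 40.6% were enriched in both ΔRRM libraries, 44.8% in both C130Y libraries and 40.0% in both (+) libraries. On the other chromosomes the shares were 36.4%, 43.2% and 42.6%. Among regions enriched in any library of the set, 148 of the 313 X regions (47.3%) were enriched in exactly 1 tagged library and 17 (5.43%) in all 6. The shares of the 2425 regions elsewhere were 48.1% and 4.91%, near those of the X.

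Levels at reproducible X regions moved between replicates. In ΔRRM the median log2 was 3.77 in replicate 1 and 2.62 in replicate 2, and replicate 1 was the higher at 90 of 95 regions. In C130Y the medians were 2.78 and 2.88, and replicate 1 was the higher at 24 of 60. In (+) they were 2.43 and 3.03, and replicate 1 was the higher at 7 of 34. The typical absolute difference between replicates was 1.26 in ΔRRM, 0.48 in C130Y and 0.52 in (+), so log2 values of different libraries are set side by side here and are not tested region by region.

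The 3 forms shared X regions in unequal numbers. ΔRRM and C130Y had 38 reproducible X regions in common, 40.0% of the ΔRRM list and 63.3% of the C130Y list. ΔRRM and (+) had 22 in common, 23.2% and 64.7% of their lists, and C130Y and (+) also had 22, 36.7% and 64.7% of theirs. On the other chromosomes the shares were 33.0% and 48.6% for ΔRRM and C130Y, 23.2% and 61.4% for ΔRRM and (+), and 42.9% and 77.1% for C130Y and (+). The differences between the X and the other chromosomes in these shares were not tested. Of the 124 X regions reproducible in at least 1 form, 52 (41.9%) were so in ΔRRM only, 17 (13.7%) in C130Y only and 7 (5.65%) in (+) only, and 17 were so in all 3. Of 830 such regions elsewhere, 45.5% were reproducible in ΔRRM only, 18.4% in C130Y only and 3.98% in (+) only. Over single libraries, the Jaccard index of X regions (shared over total) was 0.406 within ΔRRM, 0.448 within C130Y and 0.4 within (+). It was 0.255 to 0.291 between ΔRRM and C130Y, 0.161 to 0.270 between ΔRRM and (+), and 0.297 to 0.353 between C130Y and (+). With the no-transgene library it was 0.0179 to 0.0725. On the other chromosomes it was 0.205 to 0.230 between ΔRRM and C130Y, 0.166 to 0.196 between ΔRRM and (+), 0.287 to 0.380 between C130Y and (+), and 0.0627 to 0.194 with the no-transgene library.

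**Figure D5:**
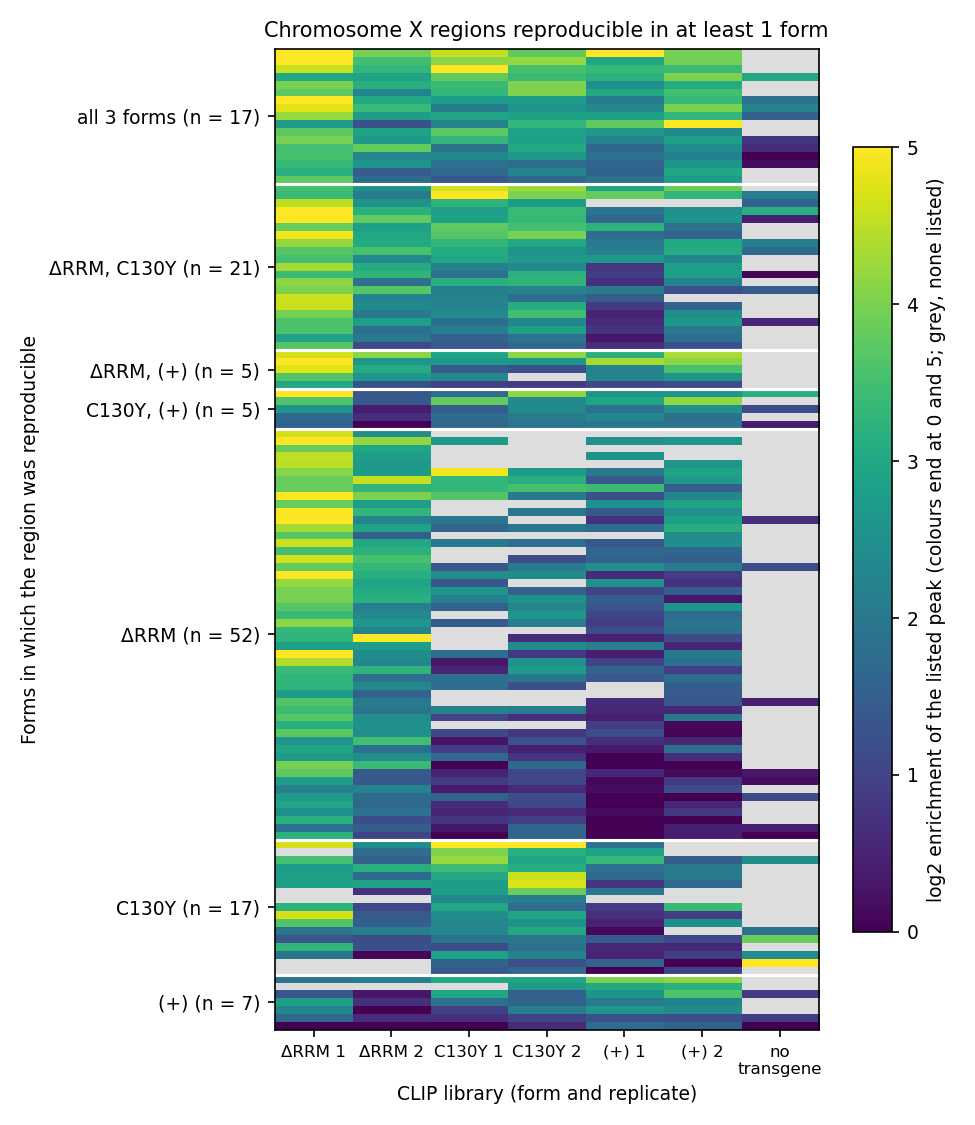
log2 enrichment in each CLIP library (columns, tagged forms first) of the 124 chromosome X regions reproducible in at least 1 form (rows), grouped by the forms in which they were reproducible and ordered by mean log2 within a group. Grey marks a library with no listed peak, which is common in the no-transgene column, and most regions reproducible in ΔRRM only still have a listed peak above input in the (+) columns.

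Few reproducible X regions were also enriched without a transgene. The numbers were 3 of 95 for ΔRRM (3.16%, 95% Wilson interval 1.08 to 8.88), 6 of 60 for C130Y (10%, 4.66 to 20.1) and 2 of 34 for (+) (5.88%, 1.63 to 19.1). On the other chromosomes the shares were 12.4% (9.94 to 15.3) in ΔRRM, 32.2% (27.8 to 36.9) in C130Y and 38.6% (32.4 to 45.1) in (+). Each X share was below the share elsewhere, with intervals that do not overlap, although neighbouring regions are not independent and the no-transgene library had few enriched X peaks to overlap with.

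All 3 forms were reproducible at 17 X regions in 14 loci, when 4.97% of all regions were. The 6 with the highest minimum log2 over the 6 tagged libraries are described first. Region 4410664 to 4410703 on the plus strand (40 nt) had log2 5.37 and 3.95 in ΔRRM, 4.56 and 3.78 in C130Y and 5.72 and 3.96 in (+), and no listed peak without a transgene. It held 29 and 42 CLIP reads in ΔRRM, 38 and 85 in C130Y and 79 and 38 in (+), over 1 to 6 input reads. No tagged library fell below a log2 of 3.78 there, and the values of the 3 forms overlapped. Region 5999921 to 6000025 on the minus strand had log2 4.57 and 3.31 in ΔRRM, 5.64 and 3.54 in C130Y and 3.36 and 3.41 in (+). Region 13045805 to 13045876 on the plus strand had log2 5.56 and 3.49 in ΔRRM, 4.12 and 4.20 in C130Y and 3.00 and 3.96 in (+). Region 13522671 to 13522749 on the minus strand had log2 4.00 and 3.14 in ΔRRM, 3.42 and 4.04 in C130Y and 2.51 and 3.07 in (+). These 3 also had no listed peak without a transgene. At each of them both C130Y values were above both (+) values, while the values of ΔRRM and C130Y overlapped. At the last, both ΔRRM values were above both (+) values as well.

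The other members of this group of 6 were the X regions enriched in all 7 libraries. Region 3994622 to 3994658 on the plus strand had log2 3.00 and 2.88 in ΔRRM, 3.78 and 3.41 in C130Y, 3.17 and 4.04 in (+) and 3.03 without a transgene. Region 1504314 to 1504361 on the minus strand had log2 4.23 and 2.79 in ΔRRM, 2.95 and 2.87 in C130Y, 2.85 and 3.32 in (+) and 1.56 without a transgene. It was among the deepest, with 178 and 268 CLIP reads in ΔRRM, 96 and 113 in C130Y, 409 and 280 in (+) and 98 without a transgene. The no-transgene log2 was thus within the range of the tagged libraries at the first of these regions and below all 6 at the second.

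ΔRRM had 50 reproducible X regions with no enriched peak in either (+) library, in 45 loci, when 15% of all 2738 regions were of this kind. A listed peak above input in at least 1 (+) library was present at 45 of the 50, and 13 were also enriched in at least 1 C130Y library. The values in ΔRRM and (+) chose these regions and are given as a description. Region 9091305 to 9091335 on the plus strand had log2 4.97 and 4.01 in ΔRRM, 3.64 and 2.04 in C130Y, and 1.23 and 2.30 in (+), on 11 and 22 CLIP reads in ΔRRM. Region 12692430 to 12692536 on the plus strand had log2 3.83 and 4.55 in ΔRRM, 3.32 and 3.12 in C130Y, and 1.42 and 2.71 in (+). At the second of these the C130Y values lay between those of the other forms, while at the first they overlapped those of (+). The (+) values at both rested on 4 to 8 CLIP reads.

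Region 767067 to 767208 on the minus strand was the deepest of the 6 named in this set, with 57 and 35 CLIP reads in ΔRRM. Its log2 was 4.02 and 3.68 in ΔRRM, 2.15 and 2.28 in C130Y, 2.00 and 1.22 in (+) and 1.48 without a transgene, and both C130Y libraries were enriched there. Region 14163118 to 14163187 on the minus strand had log2 4.68 and 3.55 in ΔRRM, 1.18 in C130Y replicate 2, the only C130Y library with a listed peak, and 1.59 and 1.52 in (+). Region 14170972 to 14171021 on the minus strand was the only one of the 6 below input in (+). Its log2 was 3.97 and 3.36 in ΔRRM, -0.06 and 1.72 in C130Y, and -0.80 and -0.40 in (+). Region 9708421 to 9708474 on the plus strand had log2 4.97 and 3.29 in ΔRRM, 1.95 in C130Y replicate 2 only, and 1.42 and 2.52 in (+).

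The reverse set was small. There were 5 X regions reproducible in (+) with no enriched peak in ΔRRM or without a transgene, when 1.5% of all regions were of this kind. Region 5101034 to 5101096 on the plus strand was by far the deepest of them, with 813 and 807 CLIP reads over 159 and 220 input reads in (+). Its log2 was -0.06 and -0.04 in ΔRRM, -0.0041 and 0.61 in C130Y, 1.77 and 1.59 in (+), and -0.78 without a transgene. CLIP and input were level in 3 of the 4 libraries of the altered forms, and C130Y replicate 2 had 655 CLIP reads over 416 input reads and a −log10 p-value of 10.9. Region 4677990 to 4678074 on the minus strand had log2 3.04 and 3.17 in (+), 2.76 on 7 CLIP reads in C130Y replicate 2, and no listed peak in ΔRRM, in C130Y replicate 1 or without a transgene.

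At the other 3 regions of that set a C130Y library was enriched as well. Region 10821281 to 10821342 on the minus strand had log2 1.93 and 2.14 in ΔRRM, 3.02 and 2.95 in C130Y, and 4.00 and 4.17 in (+), on 4 and 9 CLIP reads in ΔRRM. Region 8945098 to 8945123 on the minus strand had log2 1.34 and 0.31 in ΔRRM, 2.95 and 1.54 in C130Y, 2.59 and 3.62 in (+) and 0.83 without a transgene. Region 6791147 to 6791211 on the plus strand had log2 1.71 and 0.63 in ΔRRM, 0.68 and 1.03 in C130Y, 1.25 and 1.20 in (+) and 0.87 without a transgene. Its ΔRRM replicate 1 value was the highest of all but carried a −log10 p-value of 2.88 on 16 CLIP reads, so the p-value alone placed it outside the enriched peaks. No X region was reproducible in both (+) and C130Y while lacking an enriched peak in ΔRRM and without a transgene, and 13 regions (0.475% of 2738) were so elsewhere. The X number became 5 when ΔRRM replicate 1 was left out.

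C130Y had 20 reproducible X regions with no enriched peak in (+), in 19 loci, when 5.77% of all regions were of this kind. Of these, 18 had a listed peak above input in at least 1 (+) library, and 14 were enriched in at least 1 ΔRRM library. Region 8154451 to 8154485 on the plus strand held the highest log2 of any enriched X peak in C130Y, 6.27 and 5.81 on 31 and 58 CLIP reads over 1 input read each. It had log2 4.68 and 2.43 in ΔRRM, 1.88 in (+) replicate 1 and no listed peak in (+) replicate 2 or without a transgene. Region 7681042 to 7681068 on the plus strand had log2 4.02 and 3.16 in C130Y, 1.80 in ΔRRM replicate 2 and 2.88 in (+) replicate 1, on 22 CLIP reads and with a −log10 p-value of 2.92. Both regions stood out in C130Y, and the second lay just under the threshold in 1 (+) library.

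A further pair of the C130Y regions lay in the locus of the shared region at 5999921. Region 6000397 to 6000425 on the minus strand had log2 2.73 and 3.14 in ΔRRM, 3.43 and 3.12 in C130Y and 1.88 and 2.04 in (+). Region 6001381 to 6001435 on the minus strand had log2 3.83 and 2.82 in ΔRRM, 3.78 and 3.48 in C130Y and 3.23 and 1.88 in (+), and it was also reproducible in ΔRRM. Within this locus, then, 1 region was reproducible in all forms, 1 in ΔRRM and C130Y and 1 in C130Y alone. Region 13730751 to 13730791 on the plus strand had log2 4.21 and 3.06 in ΔRRM, 3.32 and 3.04 in C130Y, 2.00 and 3.04 in (+) and 2.16 without a transgene. Region 8640732 to 8640778 on the minus strand had log2 2.83 and 1.78 in ΔRRM, 3.02 and 4.60 in C130Y and 1.74 and 2.04 in (+).

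Conversely, 4 X regions were reproducible in (+) with no enriched peak in C130Y, when 1.13% of all regions were of this kind, and all 4 had a listed peak above input in a C130Y library. Besides the regions at 4677990 and 5101034, they were regions that were also reproducible in ΔRRM. Region 8624286 to 8624305 on the plus strand had log2 5.10 and 2.62 in ΔRRM, 2.73 and 2.66 in C130Y and 4.33 and 4.14 in (+). Region 8766058 to 8766208 on the plus strand had log2 4.76 and 3.08 in ΔRRM, 1.45 and 1.22 in C130Y, and 2.19 and 3.56 in (+), and no listed peak without a transgene. At this last region both C130Y values were below all 4 values of the other forms.

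Without a transgene 21 X regions in 16 loci were enriched, when 19% of all 2738 regions were. Of these, 13 were enriched in no tagged library and 8 in at least 1. On the other chromosomes 272 of 500 such regions were enriched without a transgene only. The highest log2, 5.55 on 21 CLIP reads over 1 input read, was listed for abutting pieces at 7485869 to 7485875 and 7485876 to 7485889 on the minus strand, which carry the same values. At the longer piece the log2 was 3.32 in C130Y replicate 1, 1.54 in C130Y replicate 2 and 3.52 in (+) replicate 2, on 6 to 14 CLIP reads, and no other tagged library listed a peak. Region 6091368 to 6091488 on the minus strand was the best supported, with log2 4.57 and a −log10 p-value of 39.6 on 96 CLIP reads without a transgene. Its log2 was 1.51 and 0.93 in ΔRRM, 0.61 and 0.25 in C130Y and 0.58 and -0.40 in (+), below the no-transgene value in 6 of 6 tagged libraries.

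Region 1891518 to 1891610 on the plus strand was shared. Its log2 was 1.60 and 1.22 in C130Y, 1.58 and -0.06 in (+) and 5.06 without a transgene, with no listed peak in ΔRRM, and it was enriched in both C130Y libraries and in (+) replicate 1. Regions 1440148 to 1440213 and 17604187 to 17604237, both on the minus strand, each had log2 4.33 on 9 CLIP reads over 1 input read without a transgene. Neither was enriched in a tagged library, where the listed values rested on 3 to 6 CLIP reads.

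Enriched regions were gathered in part. Of the 182 X loci 119 held 1 region, and the 3 with most regions held 8, 8 and 6. The locus at 16929939 to 16931007 on the plus strand (1069 nt) had 5 and 7 of its 8 regions enriched in ΔRRM, 4 and 5 in C130Y, 2 and 6 in (+) and 0 without a transgene. Its highest log2 was 5.51 and 3.81 in ΔRRM, 2.40 and 3.20 in C130Y and 1.89 and 2.83 in (+). The regions 16929939 to 16930002 and 16930441 to 16930566 in it were enriched in all 6 tagged libraries. In the second of these the log2 was 3.51 and 3.81 in ΔRRM, 1.93 and 3.04 in C130Y, 1.69 and 2.43 in (+) and 0.63 without a transgene, so both ΔRRM values exceeded the other 5.

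The locus at 17460100 to 17460679 on the plus strand (580 nt) had 7 and 6 of 8 regions enriched in ΔRRM, 5 and 6 in C130Y, 3 and 6 in (+) and 0 without a transgene. Its last region, 17460538 to 17460679, was enriched in all tagged libraries, with log2 5.26 and 3.05 in ΔRRM, 2.78 and 2.80 in C130Y, 2.11 and 3.36 in (+) and 1.89 without a transgene. Its first region, 17460100 to 17460127, was enriched in ΔRRM replicate 1 only. There the log2 was 1.70 and 1.21 in ΔRRM, -0.60 and -0.09 in C130Y and -0.95 and -1.55 in (+), so the form without the RNA recognition motif was above input and the others below it. The locus at 3113280 to 3118569 on the minus strand had 3 and 2 of 6 regions enriched in ΔRRM, 4 and 2 in C130Y, 1 and 1 in (+), and 1 without a transgene. Its region 3115424 to 3115566 was reproducible in ΔRRM and C130Y, with log2 4.32 and 3.08 in ΔRRM, 2.18 and 2.40 in C130Y and 0.78 and 2.84 in (+).

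Along the chromosome, in bins of 1 Mb, the enriched peaks of the tagged libraries were unevenly spread. The bin between 4 and 5 Mb held 89 of them, 12.0% of all, with 26 and 14 in ΔRRM, 15 and 14 in C130Y and 11 and 9 in (+). The bins between 0 and 1 Mb and between 9 and 10 Mb held the fewest, 15 each. The bin between 4 and 5 Mb held 1152 listed peaks of the tagged libraries, of which 7.73% were enriched, and the bin between 9 and 10 Mb held 1012, of which 1.48% were enriched. Bins with a like number of listed peaks thus differed in their enriched share. The bin at the right end, which is incomplete, had the highest enriched share, 11.0% of 635 listed peaks. Neighbouring regions weigh in this share. The bin holds the locus at 17460100 to 17460679, with 8 regions in 580 nt, and that at 17420218 to 17420567, with 4 regions in 350 nt. The 21 peaks enriched without a transgene lay mostly at the left of the chromosome, with 18 of them below 8 Mb and 0 between 10 and 17 Mb. The listed X peaks of that library ran from 23 to 81 per bin below 8 Mb. Between 10 and 17 Mb they ran from 16 to 53 per bin. Some of the 18 were neighbours, and 3 lay in the locus at 1504226 to 1504611. The spread was not tested.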

How the data were processed

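RNA was profiled by seCLIP in 14 libraries, 7 CLIP libraries each with an input. The authors deposited 1 peak list per CLIP library, with a strand, a log2 ratio of CLIP to input and a −log10 p-value for each peak. Per the submitters' processing notes, cutadapt 1.9.1, STAR 2.4.0i and SAMtools 1.4.1 were used on build ce10; which caller made the peaks was not given in the sources used here. The deposited −log10 p-values end at a cap of 400 and are 0 below input. Gene names and sequences of this build were not used here.

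Chromosome X peaks were taken whole. Enriched peaks (log2 of at least 1, −log10 p-value of at least 3) that overlapped by at least 1 nt on a strand were merged over the 7 libraries into regions, and regions within 5 kb on a strand into loci. A region's value in a library is that of its overlapping peak with the highest log2, taken among enriched peaks first. An absent region has no enriched peak but may have a listed one. The lists hold no read numbers. They were recovered from the steps of the deposited log2 and −log10 p-values, as Fisher's exact test below 5 reads and a Yates-corrected chi-square test otherwise. That step was chosen with the values in view. This gave the deposited p-value, within 0.001 or 1%, for 98.6% to 100% of enriched X peaks. The others were at the cap. The recovery and the region sets were checked on simulated data.

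The forms were set against each other by an exact two-sided permutation test over libraries, and the X with other chromosomes by exact two-sided sign flips over the 6 tagged libraries. The 10 p-values were adjusted by Benjamini-Hochberg. Whether replicates are separate cultures is not stated, and the p-values therefore reflect nothing beyond the spread of these libraries, which may be technical. Wilson intervals (95%) cover counting error only. Over 1406 regions, deviations of same-numbered libraries correlated at -0.153 for ΔRRM with (+), 0.0871 for C130Y with (+) and -0.0243 for ΔRRM with C130Y. Shifts of a whole library were taken out of these deviations. The values therefore cannot show whether same-numbered libraries were processed together.

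Named regions were the up to 6 per X set with the highest minimum log2 in the libraries that define the set, the 3 loci with most regions, and the 1 Mb bins with most and fewest enriched peaks. The bin at the right end, individual regions within loci, and recovered read numbers were added after the values were seen. The members, sets and lists were chosen with earlier results of these data known. Alternatives were other thresholds, joined pieces, other overlaps, the mitochondrial genome left out, each library left out, a replicate block, and, added later, loci and a crossed block. Computations used Python 3.11.15, NumPy 2.4.6, pandas 2.3.3 and SciPy 1.17.1.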

Additional observations from a re-analysis of the deposited data

Results flagged for a closer look

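The enriched share of listed peaks moved in opposite directions on chromosome X in ΔRRM and without a transgene. The log2 ratio of X to other chromosomes averaged 0.34 in the ΔRRM libraries, above 0 in 2 of 2, and was -1.66 in the no-transgene library, a difference of 2.00 that was not tested because only 1 library had no transgene.

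The median log2 enrichment of enriched peaks, X minus other chromosomes, averaged 0.43 in ΔRRM and -0.04 in (+), with every ΔRRM library above 0 and both (+) libraries below it. That difference was 0.47. In C130Y the mean was 0.23, which put C130Y 0.27 above (+). Results were flagged here because the libraries of the groups lay on opposite sides of 0. For 2 libraries against 2 this fixes the exact permutation p at 0.333 beforehand, so that p tests nothing. Both (+) libraries were instead above 0 with loci, at a −log10 p-value of at least 1.3 and at a log2 of at least 3. The (+) mean was 0.39 below the value of 0.35 without a transgene, a difference of -0.39 that was not tested.

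The median length of enriched X peaks relative to other chromosomes also went opposite ways. The log2 ratio averaged 0.31 in C130Y and 0.37 in (+), against -0.21 without a transgene. The differences were 0.52 for C130Y and 0.58 for (+), and neither was tested.

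The plus-strand share of enriched peaks was higher on the X than elsewhere in 6 of 6 tagged libraries and lower in the no-transgene library, where the difference was -4.23 percentage points on 21 X peaks. The tagged means were 7.60 points in ΔRRM, 6.60 in C130Y and 10.3 in (+). They exceeded the no-transgene value by 11.8, 10.8 and 14.6 points in the same order, and none of these differences was tested.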

How the results depend on the processing

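Under other settings that left out no tagged library, 106 values were recomputed. Of these, 70 kept their direction and their side of the threshold, or, for a count, stayed within 1.5 times. In the rest, 24 counts moved, 6 values turned direction, 4 passed the threshold of 0.05 and 2 no longer did. The causes were not tested. The 70 include the replicate blocks, which cannot change a value. They also include tests between forms, which could not reach 0.05 at any setting, so only their direction was compared. At a log2 of at least 3, the share difference of C130Y from (+) turned to 0.367 points, the X minus other median log2 to -0.080, the length ratio was 0.24 and now passed (exact sign-flip permutation p = 0.03125), and the strand difference of 2.60 points no longer did. At a −log10 p-value of at least 5, the enriched-share ratio turned to -0.14 and the length ratio of 0.41 passed. At 1.3, the ΔRRM minus (+) share turned to -2.53 points, the enriched-share ratio of 0.15 and the median difference of 0.21 passed, and the strand difference of 2.01 points did not. With loci, the ΔRRM share differences turned to -0.784 points against (+) and -0.0706 against C130Y. Reproducible X regions numbered 31, 56 and 204 in ΔRRM at these 3 thresholds (log2 of 3, −log10 p-value of 5 and of 1.3), 16, 32 and 115 in C130Y, 10, 21 and 74 in (+), and 3, 11 and 34 in all forms. ΔRRM regions absent from (+) numbered 22, 30 and 110, C130Y regions absent from (+) 8, 11 and 36, and (+) regions absent from ΔRRM and without a transgene 3, 2 and 20. (+) regions absent from C130Y numbered 2, 4 and 11, and those of (+) and C130Y absent from ΔRRM and without a transgene 0, 0 and 8. Joining abutting pieces, asking an overlap of 50% of the shorter peak, leaving out the mitochondrial genome or the no-transgene library changed no call.

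Leaving out 1 library at a time gave these ranges. A region then counts for a form by its remaining library, so by construction these counts do not fall. The log2 number ratios were 0.90 to 1.54 for ΔRRM over (+), 0.41 to 0.70 for C130Y over (+) and 0.34 to 0.99 for ΔRRM over C130Y. Share differences were -0.426 to 1.70 points, -2.35 to -0.224 and 1.10 to 2.74 in the same order, the ΔRRM minus (+) difference turning without (+) replicate 1. X over other differences were 0.07 to 0.18 for the enriched share, 0.14 to 0.26 for the median log2, 0.20 to 0.28 for length and 7.51 to 8.69 points for the strand, which no longer passed without any 1 library because 5 libraries cannot give an exact p below 0.0625. Reproducible X regions were 122 to 207 in ΔRRM (207 without replicate 2), 91 to 103 in C130Y, 53 to 66 in (+) and 17 to 27 in all forms (27 without (+) replicate 1). ΔRRM regions absent from (+) were 56 to 148 (148 without ΔRRM replicate 2), C130Y regions absent from (+) 26 to 54, and (+) regions absent from C130Y 7 to 19. (+) regions absent from ΔRRM and without a transgene were 5 to 14, and those shared with C130Y 0 to 5.

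With the replicate number as a block, the log2 number ratios are again 1.22, 0.56 and 0.67 and the share differences 0.635, -1.28 and 1.92 points. Pairing cannot change these means. The exact sign-flip permutation p was 0.5 or 1. With 2 pairs 0.5 is the smallest p possible, so 0 of 6 tests could pass and the block checks nothing. The crossed pairing of ΔRRM with (+), chosen after seeing the data, has the same limit, and 0 of 2 passed. Depth limits what low peaks can show: the shallowest library held 0.192 M CLIP reads.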

Other observations

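The highest −log10 p-values on chromosome X reached the cap of 400 at 3 regions. Region 7230690 to 7230769 on the minus strand did so in both ΔRRM libraries, with log2 4.77 and 3.38. Region 4964054 to 4964145 on the plus strand did so in ΔRRM replicate 1, with log2 2.77. Region 8846723 to 8846744 on the plus strand did so in (+) replicate 1, with log2 3.87. The first of the 3 was enriched in all 6 tagged libraries. The last, 22 nt long, had a listed peak in no library but (+) replicate 1. No −log10 p-value of any list lay between 97.9 and the cap. These regions were picked after their values were seen, and the read numbers behind them could not be recovered.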
